A study of Mus musculus with 100 samples.

Results

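The 10 genes whose level in knee joints of MRL/MpJ mice stayed apart from that in the other strains of the study were described in every library, namely B4galnt2, Aox4, Capg, Mamdc2, Vwa5a, Acsf2, Natd1, Pycard, Gpx3 and Myoc. They are drawn from the 17310 genes in the count table. The genes were picked by name, with no stated cutoff, for a steady difference of MRL/MpJ from both C57BL/6 and STR/ort. The differences of MRL/MpJ from the other strains chose the genes, so they are given below as a description without a test. Tests are given for other contrasts. These are the change with injury within a strain, STR/ort against C57BL/6, and the change over time within a strain. They are not independent of the choice. The difference of STR/ort from C57BL/6 follows from those of MRL/MpJ from each, and a choice for steadiness can limit changes particular to a strain.

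Gene expression was measured by RNA-seq in 100 whole knee joint libraries of MRL/MpJ (33 libraries), C57BL/6 (34) and STR/ort (33) mice aged 10 weeks at injury. The labels write C57BL/6 for what the methods of the study name C57BL/6J, the strain of the reference genome. A compressive load of 10 to 12 N injured the right knee. Joints came from 0-day (before injury), or from the injured and the uninjured contralateral side after 1-day, after 1-week or 2-weeks later, which gives 7 settings per strain and 21 groups of 4 or 5 libraries. The strains are labelled by their susceptibility to post-traumatic osteoarthritis, STR/ort as highly susceptible, and carry no transgene or drug treatment that the labels name. The labels put the 70 libraries of 0-day, 1-day and 1-week in experimental batch 1 and the 30 libraries of 2-weeks in batch 2, so that batch and time cannot be told apart for 2-weeks levels. The labels name the mouse only for the 2-weeks joints, where both joints of a mouse were sequenced. The main tests treated all libraries as independent at every time. Their p-values therefore measure the spread between libraries, which need not be separate animals.

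Libraries held between 6182016 and 20986027 counts, and median totals were alike in MRL/MpJ (10531966), C57BL/6 (10582591.5) and STR/ort (10777861). The unit of level is CPM, the count relative to the library size after TMM scaling. All 6 cartilage markers followed (Acan, Col2a1 and others) were above 0 in every group, and their summed level ranged from 1017 to 6777 CPM over the libraries, so joint tissue was present under all labels. The libraries also held muscle, marrow and synovium. The 3 T cell markers Cd3d, Cd3e and Cd3g summed to 30.8 to 36.5 CPM at 0-day in MRL/MpJ, 11.8 to 16.9 in C57BL/6 and 4.39 to 7.47 in STR/ort. The 5 tendon and ligament markers summed to 433 to 571, 1166 to 1670.3 and 831 to 1315 CPM in the same order, the 3 B cell markers to 76.6 to 95.9, 127 to 181 and 114 to 159, and the 4 erythroid markers measured of 5 listed to 3835 to 4686, 2501 to 2974 and 1702 to 1878. None of these markers was at 0 throughout a group. The 3 synovial lining markers (Prg4, Clic5 and Has1) summed to 1096 to 1492, 1589 to 2705 and 2639 to 6311 CPM, also with none at 0. These 5 of the 19 marker lists separated MRL/MpJ from both other strains at 0-day as the 10 genes did, and 1 to 7 lists did so in the other settings, the T cell list in all of them. Their part in the levels of the 10 genes was not tested. In whole joints, fewer cells of a type and less RNA per cell cannot be told apart.

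The 10 genes belong to no single pathway. MRL/MpJ mice are known for closing ear wounds and repairing cartilage better than most strains, and a joint injury calls on processes that several of the genes serve. Pycard encodes ASC, the adaptor that links sensors such as NLRP3 to caspase-1 in the inflammasome, which releases interleukin-1. Gpx3 encodes the secreted glutathione peroxidase that removes hydroperoxides outside cells, and Capg an actin-capping protein of the gelsolin family that is abundant in macrophages. Mamdc2 encodes a MAM domain protein of the extracellular matrix, and Myoc the secreted olfactomedin domain protein myocilin, known best from the eye and from glaucoma. Acsf2 encodes an acyl-CoA synthetase that activates fatty acids in mitochondria, Aox4 an aldehyde oxidase that depends on the molybdenum cofactor, and B4galnt2 a glycosyltransferase that adds N-acetylgalactosamine to sugar chains to form the Sd(a) antigen. Vwa5a encodes a protein with a von Willebrand factor type A domain, and Natd1 a small protein with an N-acetyltransferase domain.

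The genes lie on several chromosomes (GRCm38.p6), and some share a chromosome. On chromosome 11, which holds 8.14% of the placed genes of the table, are 4 of them, Gpx3 (chr11:54902854-54910387, plus strand, 5 exons), Natd1 (chr11:60902246-60913792, minus strand, 3 exons), Acsf2 (chr11:94557102-94602139, minus strand, 16 exons) and B4galnt2 (chr11:95863559-95914960, minus strand, 11 exons). Of these, Acsf2 and B4galnt2 lie closest together. Aox4 (chr1:58210397-58268600, plus strand, 35 exons) and Myoc (chr1:162639150-162649694, plus strand, 3 exons) share chromosome 1. The others are Capg (chr6:72538282-72562983, plus strand, 11 exons), Pycard (chr7:127991373-127993867, minus strand, 3 exons), Vwa5a (chr9:38718268-38743337, plus strand, 20 exons) and Mamdc2 (chr19:23302609-23448497, minus strand, 14 exons). None of the 20 nearest genes of the table on either side was called in MRL/MpJ against both other strains at 0-day, where 6.57% of all genes were.

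RefSeq promoter windows of GRCm38.p6, from 250 bases before to 50 bases after the start of a transcript, were matched by symbol for 8 of the 10 genes. Mamdc2 and Vwa5a are named only. The windows are those of the C57BL/6J reference and not of MRL/MpJ. They are shown for B4galnt2 and Aox4, the genes with the largest excess in MRL/MpJ, and for Myoc, the gene with the most changes after injury. Capitals mark the TATA box (TATAAA), the CCAAT box (CCAAT), the GC box (GGGCGG) and the motif of AP-1 (TGACTCA) on either strand, and the sequences are written 5′ to 3′ on the strand of the gene, at chr11:95914822-95915121 (minus strand), chr1:58210147-58210446 (plus strand) and chr1:162638900-162639199 (plus strand).
B4galnt2: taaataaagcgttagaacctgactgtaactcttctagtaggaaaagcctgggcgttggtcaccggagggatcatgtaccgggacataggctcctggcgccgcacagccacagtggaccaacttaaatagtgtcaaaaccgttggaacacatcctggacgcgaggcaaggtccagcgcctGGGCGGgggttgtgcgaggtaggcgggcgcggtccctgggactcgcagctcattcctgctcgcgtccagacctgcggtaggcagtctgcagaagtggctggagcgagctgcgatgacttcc
Aox4: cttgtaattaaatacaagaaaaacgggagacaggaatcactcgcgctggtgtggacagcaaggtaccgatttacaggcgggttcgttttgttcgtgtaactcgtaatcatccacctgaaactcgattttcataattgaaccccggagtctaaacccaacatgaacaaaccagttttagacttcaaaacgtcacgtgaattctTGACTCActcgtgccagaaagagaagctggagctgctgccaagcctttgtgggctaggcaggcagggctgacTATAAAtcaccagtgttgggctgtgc
Myoc: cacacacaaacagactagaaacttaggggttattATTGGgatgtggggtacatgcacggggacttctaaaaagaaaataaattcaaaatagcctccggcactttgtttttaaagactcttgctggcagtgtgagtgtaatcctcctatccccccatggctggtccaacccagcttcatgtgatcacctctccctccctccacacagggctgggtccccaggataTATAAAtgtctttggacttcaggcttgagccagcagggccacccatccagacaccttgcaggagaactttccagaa
The window of Aox4 held a TATA box and an AP-1 motif, that of Myoc a TATA box and a CCAAT box, and that of B4galnt2 a GC box. A TATA box was found in 2 of the 8 windows and in 13.62% of all 32851 windows of the table, a CCAAT box in 2 and 37.41% (Gpx3 held 2 sites), a GC box in 5 and 35.66% (Acsf2 held 5 sites), and an AP-1 motif in 2, those of Aox4 and Natd1, and 5.20%. No motif searched contains another, and a match says only that these letters are in the window. The GC content was 59.0% in the window of B4galnt2, 47.0% in that of Aox4 and 48.7% in that of Myoc, with a median of 52.7% over all windows.

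Libraries of MRL/MpJ did not overlap those of either other strain in 69 of the 70 pairs of a gene and a setting. Over all genes this held for 11.4% of 121170 pairs, and the count follows from how the genes were picked. B4galnt2, Aox4, Vwa5a and Natd1 lay above both other strains in all 7 settings, as 129 of the 17310 genes did (0.745%). Capg, Mamdc2, Acsf2, Pycard and Gpx3 lay below both in all 7 settings, as 131 did (0.757%). Myoc lay below both in 6 settings. Its exception was the injured joint at 1-week, where STR/ort replicate 1 had 9.40 CPM and the MRL/MpJ libraries 14.7, 10.5, 13.8, 12.9 and 11.3 CPM.

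**Figure D1:**
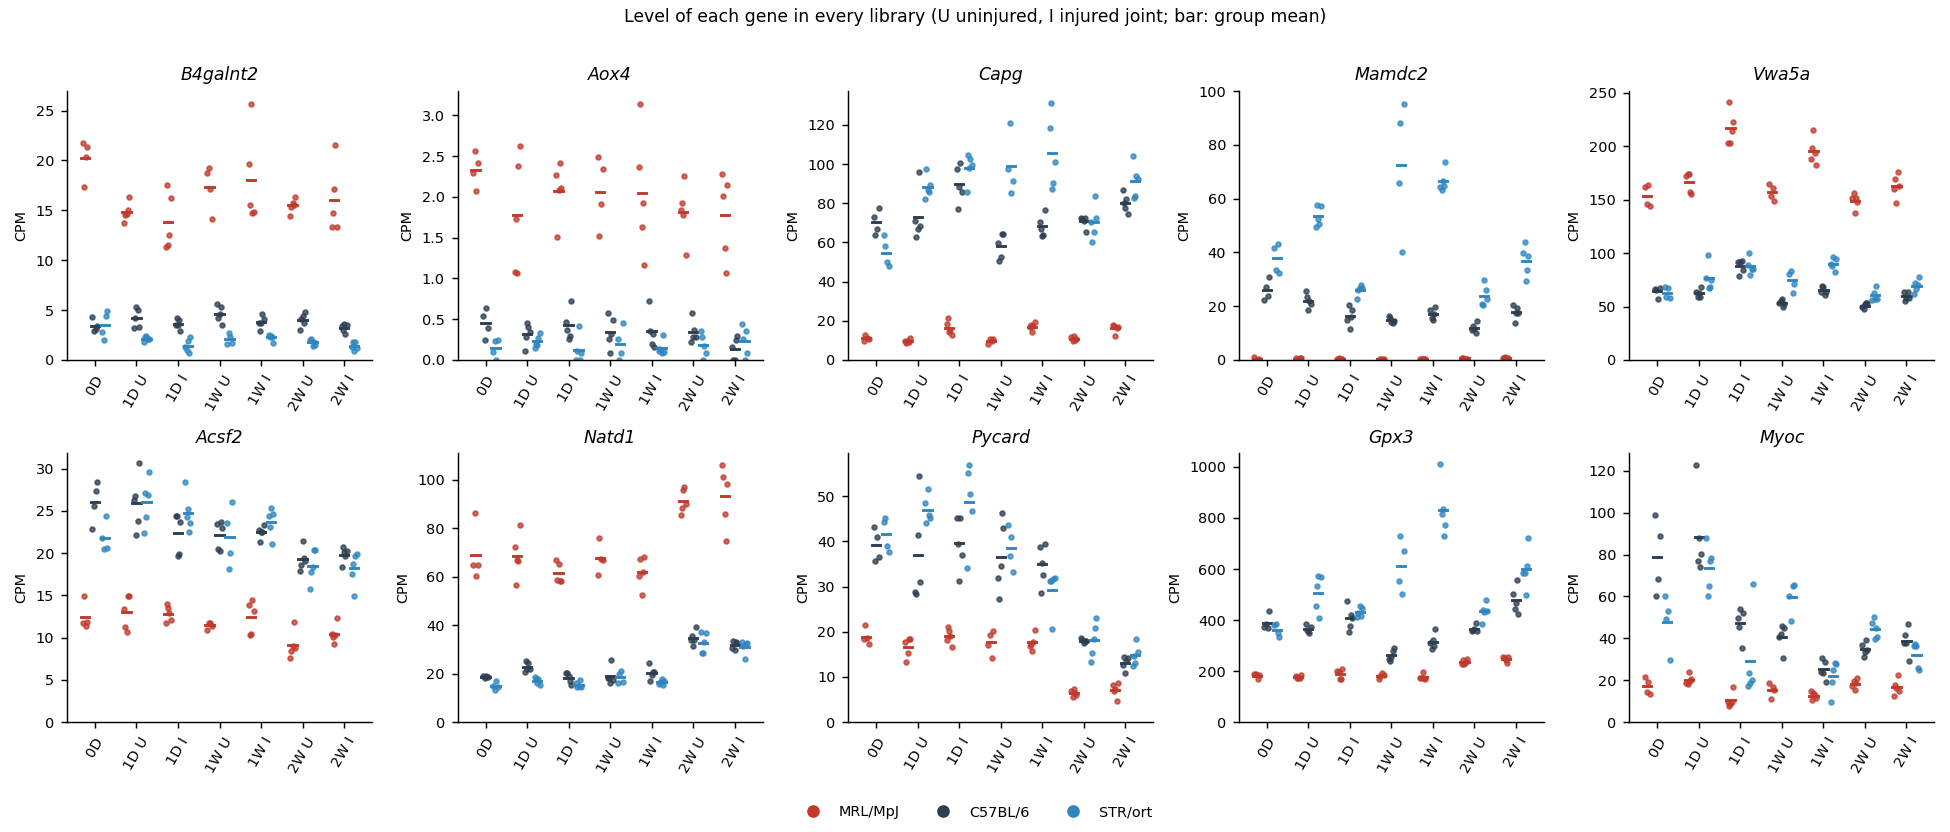
Level of each of the 10 genes (CPM, linear axis from 0) in every library, in the 7 settings from 0-day (0D) to 2-weeks (2W), for uninjured (U) and injured (I) joints of MRL/MpJ (red), C57BL/6 (dark) and STR/ort (blue), with bars at group means. Within each setting the red points stand apart from the others in every panel, above them for B4galnt2, Aox4, Vwa5a and Natd1 and below them for the rest, save for 1 blue point of Myoc at 9.40 CPM in the injured 1-week joint.

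Among the genes with the higher level in MRL/MpJ, B4galnt2 had 21.8, 17.3, 20.3 and 21.4 CPM in the 4 MRL/MpJ libraries at 0-day. Its level was 4.34, 2.89, 3.104 and 3.44 CPM in C57BL/6 and 2.81, 2.01, 4.39 and 4.91 CPM in STR/ort. Every MRL/MpJ library was more than 3 times as high as the highest library of the others, and the log2 difference was 2.51 (SE 0.18) from C57BL/6 and 2.51 (SE 0.19) from STR/ort. Over the 7 settings the log2 difference was 1.76 to 2.51 from C57BL/6 and 2.51 to 3.51 from STR/ort. All 33 MRL/MpJ libraries had 11.4 to 25.7, median 15.6 CPM, those of C57BL/6 2.603 to 5.66, median 3.69 CPM, and those of STR/ort 0.731 to 4.91, median 1.995 CPM.

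Aox4 was a gene of low counts in all strains. At 0-day it had 2.296, 2.56, 2.07 and 2.41 CPM in MRL/MpJ (12 to 23 counts), 0.543, 0.241, 0.639 and 0.393 CPM in C57BL/6 (3 to 7 counts) and 0.097, 0.237, 0 and 0.245 CPM in STR/ort (0 to 2 counts). The libraries of MRL/MpJ were the highest, at log2 differences of 2.31 (SE 0.35) and 3.96 (SE 0.46), the latter imprecise because it rests on so few counts. Over all settings Aox4 was at 0 in 2 libraries of C57BL/6 and in 6 of STR/ort, and in none of MRL/MpJ, where the level was 1.06 to 3.14, median 2.07 CPM. The adjacent aldehyde oxidase genes Aox3 (8176 bases away) and Aox2 (9726 bases away) differed little in MRL/MpJ at 0-day, with log2 differences of 0.19 and 0.52 for Aox3 and -0.17 and 0.25 for Aox2 from C57BL/6 and STR/ort, none of them called. Paralogs of the cluster could share reads, so the level of Aox4 is uncertain to that degree.

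Vwa5a and Natd1 were higher in MRL/MpJ by a steadier amount. Vwa5a had 162, 146, 164 and 144 CPM at 0-day in MRL/MpJ, 66.4, 65.2, 57.3 and 67.8 CPM in C57BL/6 and 67.9, 58.8, 67.1 and 58.4 CPM in STR/ort. Its log2 difference was 1.2196 (SE 0.08) and 1.28 (SE 0.08) there, and 1.2196 to 1.59 and 1.06 to 1.30 over the 7 settings. No library of another strain reached the lowest of MRL/MpJ: the range was 137 to 242, median 164 CPM in MRL/MpJ, and the highest was 92.6 CPM in C57BL/6 and 101 CPM in STR/ort. Natd1 had 64.9, 86.3, 60.1 and 64.8 CPM at 0-day in MRL/MpJ, 19.1, 18.1, 19.2 and 18.6 CPM in C57BL/6 and 14.8, 13.4, 16.9 and 14.5 CPM in STR/ort. Its log2 difference was 1.84 (SE 0.10) and 2.21 (SE 0.11), and 1.40 to 1.84 and 1.49 to 2.21 over the settings. The level of Natd1 was higher in the 2-weeks batch in all strains, with medians of 92.8 CPM in MRL/MpJ, 33.2 in C57BL/6 and 32.4 in STR/ort against 65.3, 19.3 and 16.3 in the earlier batch, while MRL/MpJ stayed apart from the others within each batch.

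Mamdc2 differed most among the genes with the lower level in MRL/MpJ. It had 1.098, 0.116, 0.172 and 0.517 CPM at 0-day in MRL/MpJ (1 to 11 counts), 22.4, 27.2, 23.7 and 30.8 CPM in C57BL/6 and 41.8, 33.6, 43.2 and 32.4 CPM in STR/ort. Each library of the other strains was more than 20 times as high as the highest of MRL/MpJ, with log2 differences of -5.63 (SE 0.28) and -6.13 (SE 0.27). Over the settings these were -5.73 to -4.43 and -8.02 to -5.42, values that rest on few counts in MRL/MpJ (0 to 12 per library, with 2 libraries at 0). A level of Mamdc2 above 1.10 CPM was found in no MRL/MpJ library, and one below 10.2 CPM in no library of the others.

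Capg had 9.88, 12.8, 11.02 and 10.9 CPM at 0-day in MRL/MpJ, 72.9, 63.7, 66.8 and 77.4 CPM in C57BL/6 and 63.6, 58.1, 50.01 and 47.7 CPM in STR/ort, at log2 differences of -2.70 (SE 0.11) and -2.31 (SE 0.11). The gap was wide in every setting, with log2 differences of -2.95 to -1.9981 and -3.35 to -2.31. The 8 macrophage markers, among which Capg is not counted, summed to 2335 to 2575 CPM at 0-day in MRL/MpJ, 2258 to 2599.9 in C57BL/6 and 1738 to 2436 in STR/ort, and these ranges overlapped. In injured joints at 1-day they were apart, at 1936 to 2426 CPM in MRL/MpJ against 2485 to 2932 and 2469 to 2926 CPM, and their part in the gap there was not tested. In the other settings the macrophage list did not separate MRL/MpJ from both strains.

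Pycard, the inflammasome adaptor, had 18.5, 21.4, 18.6 and 17.2 CPM at 0-day in MRL/MpJ, 43.2, 35.6, 40.997 and 36.6 CPM in C57BL/6 and 44.3, 45.3, 39.1 and 37.7 CPM in STR/ort. MRL/MpJ was the lowest without overlap, at log2 differences of -1.08 (SE 0.10) and -1.13 (SE 0.10), and of -1.50 to -0.88 and -1.54 to -0.71 over the settings. All strains had less Pycard in the 2-weeks batch, with medians of 6.87 CPM in MRL/MpJ, 16.02 in C57BL/6 and 15.4 in STR/ort against 18.1, 36.8 and 43.6 before. The 2-weeks joints of the other strains therefore reached the earlier level of MRL/MpJ, and MRL/MpJ was apart from them only within a setting.

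Gpx3 had 188, 187, 169 and 186 CPM at 0-day in MRL/MpJ, 374, 384, 369 and 435 CPM in C57BL/6 and 380.2, 384, 347 and 333 CPM in STR/ort, at log2 differences of -1.14 (SE 0.08) and -0.99 (SE 0.08). The difference from C57BL/6 was smallest at 1-week and that from STR/ort was largest there, over ranges of -1.14 to -0.53 and -2.22 to -0.87. Acsf2 had 11.7, 14.9, 11.4 and 11.9 CPM in MRL/MpJ, 22.8, 25.6, 27.3 and 28.5 CPM in C57BL/6 and 21.7, 20.5, 24.4 and 20.6 CPM in STR/ort. Its log2 differences of -1.10 (SE 0.11) and -0.81 (SE 0.11) varied little, over -1.10 to -0.82 and -1.03 to -0.80. The cartilage gene Chad lies within Acsf2 on the other strand, and the sources used here do not state whether counting used the strand. At 0-day Chad was also lower in MRL/MpJ, by -1.35 (adjusted p = 4.39e-07) from C57BL/6 and -0.53 (adjusted p = 0.00482) from STR/ort. The latter was under the fold threshold. Its median was 234 CPM in MRL/MpJ, 566 in C57BL/6 and 332 in STR/ort, and its part in the level of Acsf2 was not tested. Myoc and Mamdc2 overlap genes that are not in the count table, Myocos and Gm41821.

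Myoc had 21.5, 14.2, 18.9 and 13.6 CPM at 0-day in MRL/MpJ, 99.1, 60.1, 68.2 and 88.96 CPM in C57BL/6 and 60.5, 49.05, 53.1 and 29.5 CPM in STR/ort. These groups did not overlap, at log2 differences of -2.24 (SE 0.20) and -1.49 (SE 0.21). Myoc varied widely within the other strains, with 19.4 to 123, median 41.8 CPM in C57BL/6 and 9.404 to 88.2, median 40.7 CPM in STR/ort but 7.69 to 24.1, median 16.4 CPM in MRL/MpJ.

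The 21 groups of each gene were put in order of their median level. Of the 20 steps between neighbours in that order, 16 to 19 joined groups whose libraries overlapped. The 7 MRL/MpJ groups took one end of the order for 9 genes. For Pycard they were interleaved with the 2-weeks groups of the other strains. The highest median of B4galnt2 was 20.9 CPM in MRL/MpJ at 0-day and the lowest 1.28 CPM in injured STR/ort joints at 1-day. The step from MRL/MpJ to the other strains was a gap without overlap for B4galnt2 (injured MRL/MpJ at 1-day and uninjured C57BL/6 at 1-week), Aox4, Capg, Mamdc2, Vwa5a, Acsf2 and Natd1. The place of the MRL/MpJ groups and these gaps follow from how the genes were picked, and their share over all genes was not computed.

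Injured joints were compared with uninjured contralateral joints within a strain to ask whether the genes respond to the injury. Capg, Myoc and Mamdc2, 3 of the 10 genes, accounted for all changes called at an adjusted p below 0.05 and a fold change above 1.5. At 1-day, 1 gene was called in MRL/MpJ, 1 in C57BL/6 and 2 in STR/ort, where 2.02%, 5.6% and 4.31% of all genes were called. At 1-week 1 gene was called in each strain, against 3.13%, 5.82% and 9.21% of all genes. At 2-weeks 0 genes were called in MRL/MpJ (1 at an unadjusted p below 0.05, 0 with DESeq2), 0 in C57BL/6 (5 and 0) and 1 in STR/ort, against 1.16%, 2.95% and 4.66%.

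Capg rose after injury in MRL/MpJ, the strain where its level was lowest. At 1-day it had 9.67, 8.45, 9.77, 9.32 and 11.1 CPM in uninjured and 18.6, 21.3, 14.1, 15.2 and 12.8 CPM in injured MRL/MpJ joints. Every injured library lay above every uninjured one, and the log2 change was 0.78 (SE 0.13, adjusted p = 0.000198). At 1-week it had 8.25, 10.6, 9.88 and 10.5 CPM in uninjured and 16.6, 17.7, 14.2, 17.4 and 19.5 CPM in injured joints, again without overlap, at a log2 change of 0.83 (SE 0.14, adjusted p = 0.000118). At 2-weeks the levels were 11.6, 9.73, 12.2, 10.1 and 10.7 CPM and 17.9, 17.3, 12.03, 16.4 and 17.1 CPM, and the log2 change of 0.56 (SE 0.10, adjusted p = 0.00106) was below the fold threshold, which it passed with the filterByExpr filter (0.60) and without injured replicate 3 (0.65) or 4 (0.59) or uninjured replicate 1 (0.61) or 3 (0.61). Even after the rise, no MRL/MpJ library had more than 21.3 CPM, against at least 47.7 CPM in any library of the others. The log2 change of Capg was smaller in C57BL/6, at 0.30 (SE 0.10), 0.25 (SE 0.10) and 0.18 (SE 0.08) from 1-day to 2-weeks, and in STR/ort, at 0.13 (SE 0.10), 0.09 (SE 0.11) and 0.38 (SE 0.08). At 1-day the change in MRL/MpJ exceeded that in C57BL/6 by 0.48 (SE 0.16) and that in STR/ort by 0.65 (SE 0.16) on the log2 scale, and at 1-week by 0.57 (SE 0.17) and 0.74 (SE 0.17), given without a test. The 8 macrophage markers, none at 0, summed to 2205 to 2375 CPM in uninjured and 1936 to 2426 CPM in injured MRL/MpJ joints at 1-day, and to 2340.3 to 2596 and 2113 to 2562 CPM at 1-week, ranges that overlapped at both times. The 5 tendon and ligament markers, none at 0, were apart at both times, with 499 to 629 CPM in uninjured and 715 to 1161 CPM in injured joints at 1-day and 371 to 518 and 974 to 1436 CPM at 1-week. So were the 3 synovial lining markers, with 1449 to 2353 and 2362 to 4153 CPM at 1-day and 1388 to 1482 and 2557 to 3149 CPM at 1-week. The part of either list in the rise of Capg was not tested.

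Myoc fell after injury in C57BL/6 and STR/ort. In STR/ort at 1-day it had 88.2, 60.4, 65.1, 77.1 and 78.3 CPM in uninjured and 17.3, 23.4, 18.7, 20.03 and 66.1 CPM in injured joints, a log2 change of -1.38 (SE 0.24, adjusted p = 0.00021). Injured replicate 5 alone stood at the uninjured level, and without it the log2 change was -1.90 (adjusted p = 9.62e-10). The same library stood apart in muscle, with 28957 CPM of the 5 fast muscle markers against 11429 to 16429 CPM in the other injured libraries, and 1031 CPM of the slow muscle markers against 71.8 to 238 CPM. At 1-week STR/ort had 60.2, 48.2, 64.9 and 65.6 CPM and 9.404, 19.2, 25.04, 28.2 and 27.98 CPM, with no overlap and a log2 change of -1.44 (SE 0.19, adjusted p = 2.06e-06). C57BL/6 had 123, 77.2, 87.7, 73.9 and 80.3 CPM in uninjured and 49.8, 45.4, 54.3, 35.3 and 52.2 CPM in injured joints at 1-day, a log2 change of -0.90 (SE 0.24, adjusted p = 0.00658). At 1-week the C57BL/6 levels were 40.9, 41.9, 45.7, 30.9 and 44.7 CPM and 24.01, 30.4, 23.6, 28.5 and 19.4 CPM, also without overlap, and the log2 change of -0.67 (SE 0.18, adjusted p = 0.0126) was no longer called without injured replicate 5 (-0.59, adjusted p = 0.0514). In MRL/MpJ at 1-day Myoc had 18.8, 18.1, 24.1, 19.5 and 20.6 CPM in uninjured and 9.77, 7.69, 8.54, 9.76 and 16.6 CPM in injured joints. These groups did not overlap, yet the log2 difference of -0.93 (SE 0.28, adjusted p = 0.0545) missed the threshold in the fit of this time point and passed it with DESeq2 (adjusted p = 0.0228), in 1 fit of all 100 libraries (-0.95, adjusted p = 0.00643) with the replicate number as a block (adjusted p = 0.0257) and without any one of 5 single libraries, among them injured MRL/MpJ replicate 5 (-1.17, adjusted p = 0.0165) and injured STR/ort replicate 5 (-0.94, adjusted p = 0.000751). Injured MRL/MpJ replicate 5, the highest in Myoc, had 54735 CPM of fast muscle markers against 30053 to 36324 CPM, and uninjured C57BL/6 replicate 1, also the highest, 60038 against 24693 to 33824 CPM. At 2-weeks the log2 differences were -0.46 (SE 0.13, adjusted p = 0.0163) in STR/ort, 0.14 (SE 0.13, adjusted p = 0.58) in C57BL/6 and -0.15 (SE 0.15, adjusted p = 1) in MRL/MpJ. The 5 fast muscle markers, none at 0, summed to 21997 to 36666 CPM in uninjured and 11429 to 28957 CPM in injured STR/ort joints at 1-day, 24693 to 60038 and 21983 to 35426 CPM in C57BL/6, and 43330.4 to 56746 and 30053 to 54735 CPM in MRL/MpJ. At 1-week they summed to 18745 to 37427 and 10056 to 22216 CPM in STR/ort and 29569 to 52916 and 20062 to 41675 CPM in C57BL/6, where the slow muscle markers lay lower in injured joints without overlap (274 to 763 against 75.6 to 176 CPM). Within groups, Myoc and the fast muscle sum had a Pearson r of 0.50 over the 100 libraries, and the part of muscle in the change was not tested. Other lists were apart beside the falls as well. Tendon and ligament markers were higher in injured joints of C57BL/6 at 1-day (1456 to 2037 against 908 to 1455 CPM) and at 1-week (1150.2 to 1714 against 527 to 689 CPM) and of STR/ort at 1-week (3137 to 4435 against 1252 to 2092 CPM). Synovial lining markers were higher in C57BL/6 at both times and endothelium markers in STR/ort at 1-week, while marrow neutrophil markers were lower in C57BL/6 at 1-day and STR/ort at 1-week and white fat markers in C57BL/6 at 1-week. In STR/ort at 1-day none of the 19 lists was apart, and the part of these lists was not tested.

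**Figure D2:**
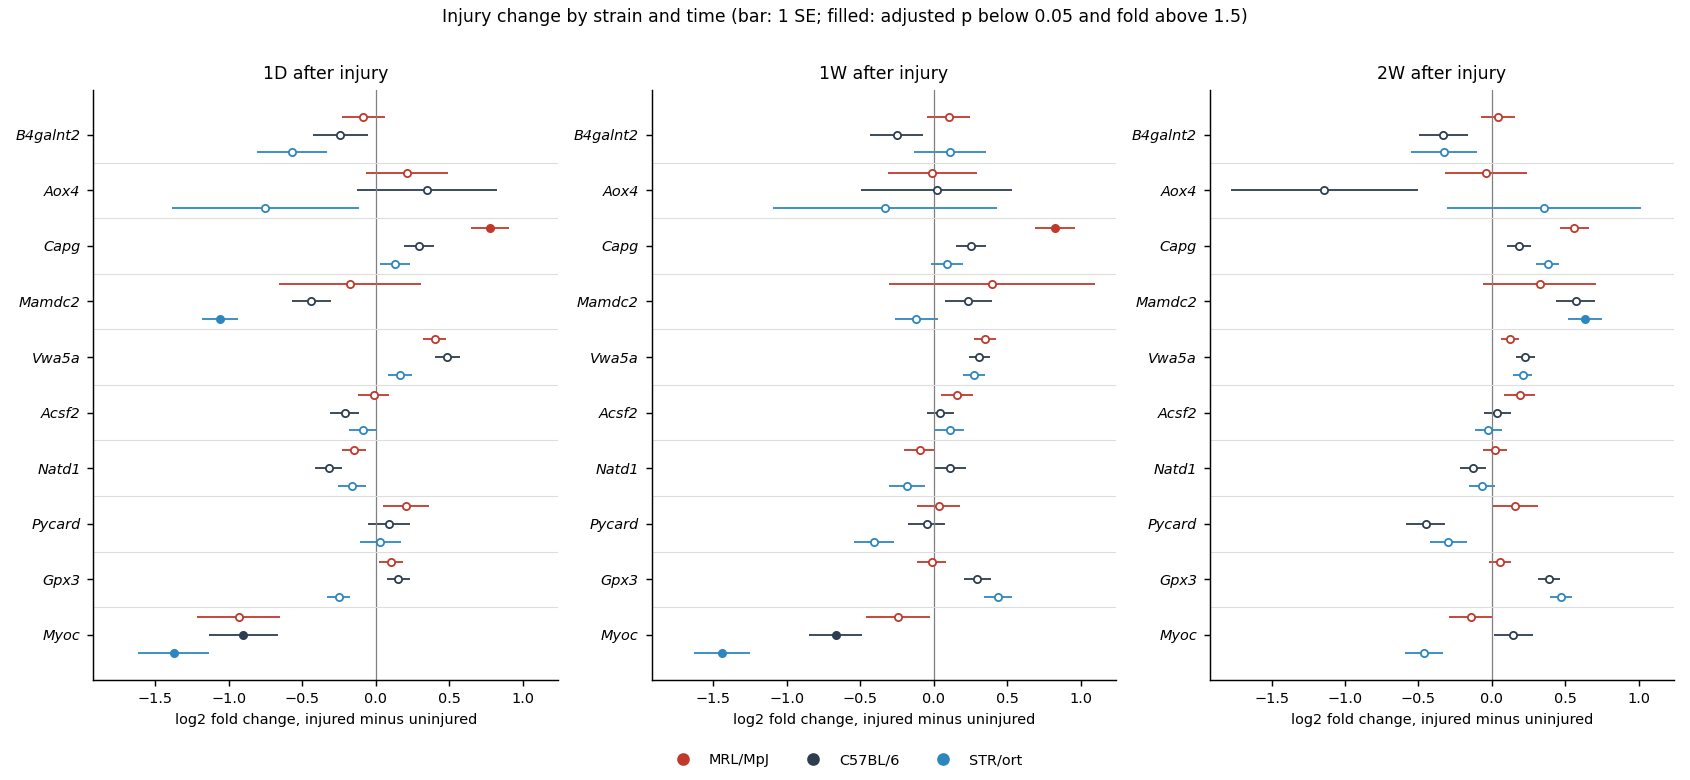
Log2 fold change of each gene in injured against uninjured contralateral joints, 1 panel for each of 1-day, 1-week and then 2-weeks (1D, 1W, 2W), with bars of 1 SE and filled points where a change was called, in MRL/MpJ (red), C57BL/6 (dark) and STR/ort (blue). Filled points are Capg in MRL/MpJ (0.78 and 0.83), Myoc in C57BL/6 and STR/ort (-1.44 to -0.67) and Mamdc2 in STR/ort (-1.06 at 1-day and 0.63 at 2-weeks).

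Mamdc2 fell and later rose with injury in STR/ort. At 1-day it had 49.4, 57.7, 52.4, 50.7 and 57.4 CPM in uninjured and 22.8, 25.9, 26.7, 27.999 and 26.7 CPM in injured STR/ort joints. The highest injured library was far below the lowest uninjured one, and the log2 change was -1.06 (SE 0.12, adjusted p = 3.2e-07). At 2-weeks it had 21.01, 20.3, 29.7, 25.96 and 22.5 CPM in uninjured and 39.7, 43.8, 29.2, 33.4 and 38.7 CPM in injured joints, a log2 change of 0.63 (SE 0.12, adjusted p = 0.000193) that fell below the fold threshold without replicate 2 of the injured (0.57) or of the uninjured joints (0.58). The injured libraries were the higher ones there, apart from injured replicate 3, which lay just below uninjured replicate 3. Between these joints no marker list was apart at 1-day, whereas at 2-weeks the tendon and ligament (579 to 742 against 1073 to 1465 CPM), cartilage, endothelium and brown fat lists were, and their part was not tested. In C57BL/6 the log2 difference had the same signs, at -0.44 (SE 0.13, adjusted p = 0.0192) at 1-day and 0.57 (SE 0.13, adjusted p = 0.00426) at 2-weeks, both under the fold threshold, the latter above it with housekeeping scaling (0.61), with factors estimated from housekeeping genes (0.59 and 0.60 with 1 and 2 factors) and without injured replicate 2 (0.64) or uninjured replicate 2 (0.59) or 5 (0.66). In MRL/MpJ, at 0 to 12 counts per library, a change of Mamdc2 was not detectable at this depth.

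The other 7 genes were called in no injury comparison. Vwa5a was higher in injured than in uninjured joints in all 9 comparisons, by 0.12 to 0.49 on the log2 scale, with an adjusted p below 0.05 in 7 of them. Its largest difference was in C57BL/6 at 1-day, from 63.2, 58.7, 62.8, 59.1 and 68.6 CPM to 91.6, 78.4, 92.1, 92.6 and 83.9 CPM, groups that did not overlap, at 0.49 (SE 0.08, adjusted p = 7.82e-05). In the 15 mice whose joints the labels pair at 2-weeks, Vwa5a was higher on the injured side in 5 of 5 mice of each strain. In these pairs Capg was higher on the injured side in 5 of 5 mice of C57BL/6 and STR/ort and 4 of 5 of MRL/MpJ, and Mamdc2 in 5 of 5, 4 of 5 and 3 of 5. Myoc was higher in 0 of 5 STR/ort mice, 4 of 5 of C57BL/6 and 2 of 5 of MRL/MpJ. Gpx3 fell in STR/ort at 1-day, at -0.25 (SE 0.08, adjusted p = 0.0393), under the fold threshold. It gave log2 differences of 0.29 (SE 0.09, adjusted p = 0.0337) in C57BL/6 at 1-week, 0.44 (SE 0.10, adjusted p = 0.00152) in STR/ort at 1-week, 0.47 (SE 0.07, adjusted p = 2.07e-05) at 2-weeks and 0.39 (SE 0.07, adjusted p = 0.000555) in C57BL/6 at 2-weeks, and was higher on the injured side in 5 of 5 mice of either strain and 4 of 5 of MRL/MpJ. Pycard gave -0.41 (SE 0.14, adjusted p = 0.0296) in STR/ort at 1-week and -0.45 (SE 0.13, adjusted p = 0.0261) in C57BL/6 at 2-weeks, when it was higher on the injured side in 0 of 5 mice of C57BL/6 and of STR/ort and in 3 of 5 of MRL/MpJ. Natd1 gave -0.32 (SE 0.09, adjusted p = 0.0122) in C57BL/6 at 1-day and was higher on the injured side in 0 of 5 C57BL/6, 1 of 5 STR/ort and 3 of 5 MRL/MpJ mice at 2-weeks. Its other differences, like those of B4galnt2, Aox4 and Acsf2, had adjusted p-values above 0.05. At 2-weeks B4galnt2 was higher on the injured side in 1 to 2 of the 5 mice of a strain, Aox4 in 1 to 3 and Acsf2 in 2 to 4. Aox4, at few counts, had log2 differences beyond the fold threshold that did not pass the test, -1.14 (SE 0.64, adjusted p = 0.298) in C57BL/6 at 2-weeks and -0.75 (SE 0.64, adjusted p = 0.545) in STR/ort at 1-day. B4galnt2 in STR/ort at 1-day, at -0.57 (SE 0.24, adjusted p = 0.132), was called without injured replicate 5 (-0.75, adjusted p = 0.038).

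Whether injury acted differently in STR/ort and C57BL/6 was tested as an interaction. Mamdc2 was the 1 gene called at 1-day, where 2.66% of all genes were, with a log2 change that was lower in STR/ort by 0.62, an interaction of -0.62 (SE 0.18, adjusted p = 0.0477). This call stood in 7 of 30 fits that each left out a library, and over all alternatives the adjusted p went up to 0.105. Gpx3 at 1-day had an interaction of -0.41 (SE 0.11, adjusted p = 0.0336), under the fold threshold, with injury differences of -0.25 (SE 0.08) in STR/ort and 0.15 (SE 0.08) in C57BL/6. At 1-week 0 genes were called (1 at an unadjusted p below 0.05, 0 with DESeq2), against 0.491% of all genes, with -0.77 (SE 0.26, adjusted p = 0.202) for Myoc. Its interaction was called with the replicate number as a block (-0.92, adjusted p = 0.0326), although the labels do not pair the joints of this time. At 1-day the interaction of Myoc was -0.48 (SE 0.34, adjusted p = 0.496), and it was called without STR/ort injured replicate 5 (-1.02, adjusted p = 0.00303). At 2-weeks 0 genes were called as well (1 and 0), against 0.0462%. Over the 3 times the interaction of B4galnt2 was -0.33 to 0.36, that of Capg -0.16 to 0.20, that of Vwa5a -0.32 to -0.02, that of Acsf2 -0.06 to 0.12, that of Natd1 -0.29 to 0.16 and that of Pycard -0.36 to 0.16, none called. Aox4, at few counts, ranged from -1.10 to 1.49.

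STR/ort and C57BL/6 were compared to see how far the genes vary between the strains that MRL/MpJ was set against. The comparisons share libraries with those of injury and time. At 0-day 2 genes were called, where 13.8% of all genes were. In uninjured joints 2 were called at 1-day, 4 at 1-week and 2 at 2-weeks, against 10.5%, 22.2% and 9.78%, and in injured joints 4, 4 and 2, against 12.4%, 25.1% and 10.4%. Mamdc2 and B4galnt2 made up 12 of these 20 calls, and Acsf2, Natd1, Pycard and Vwa5a none. With factors estimated from housekeeping genes calls were gained in injured joints at 1-week, for Pycard (-0.27 (SE 0.13, adjusted p = 0.08) without factors) at -0.97 (adjusted p = 3.37e-06) with 1 factor and -0.77 (adjusted p = 0.000143) with 2, and for Natd1 (-0.32 (SE 0.11, adjusted p = 0.0169)) at -0.61 (adjusted p = 0.00532) with 1. Pycard in uninjured joints at 1-week turned from 0.09 (SE 0.13, adjusted p = 0.622) to -0.64 (adjusted p = 0.00142) with 1 factor.

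Mamdc2 was higher in STR/ort than in C57BL/6 after 0-day. In uninjured joints at 1-week it had 65.95, 88.2, 40.2 and 95.2 CPM in STR/ort and 16.3, 15.6, 14.3, 13.8 and 14.6 CPM in C57BL/6. The strains were far apart, and the log2 difference of 2.29 (SE 0.16, adjusted p = 1.68e-12) was the largest of Mamdc2 in any setting. In injured joints it had 64.3, 63.3, 66.5, 64.8 and 73.7 CPM and 18.8, 15.6, 14.7, 17.1 and 19.7 CPM, at 1.94 (SE 0.15, adjusted p = 1.66e-11). The log2 difference was 1.29 (SE 0.13) and 0.67 (SE 0.13) in uninjured and injured joints at 1-day, and 0.99 (SE 0.13) and 1.05 (SE 0.12) at 2-weeks, all called. The call in injured joints at 1-day was lost without C57BL/6 injured replicate 3 (0.57) and with housekeeping scaling (0.55). In uninjured joints at 1-week 10 of the 19 marker lists were apart between these strains and in injured joints 13. Uninjured STR/ort joints had 1252 to 2092 CPM of tendon and ligament, 4703 to 6124 CPM of cartilage and 2592 to 3767 CPM of bone markers, against 527 to 689, 1081 to 3008 and 1245 to 1769.8 CPM in C57BL/6, and their part in the difference was not tested. At 0-day it was 0.50 (SE 0.14, adjusted p = 0.0079), below the fold threshold, and was called without C57BL/6 replicate 4 (0.59) and with 2 factors from housekeeping genes (1.21). By group median, MRL/MpJ was lowest and STR/ort highest in Mamdc2 in all 7 settings.

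B4galnt2 showed no detectable difference between STR/ort and C57BL/6 at 0-day, with a log2 difference of -0.01 (SE 0.23, adjusted p = 0.989), and was lower in STR/ort afterwards. At 2-weeks uninjured joints had 1.995, 2.07, 1.42, 1.76 and 1.53 CPM in STR/ort and 3.03, 4.07, 4.45, 3.67 and 4.800 CPM in C57BL/6. No STR/ort library reached the lowest of C57BL/6, and the log2 difference was -1.20 (SE 0.19, adjusted p = 1.7e-05). It was -0.9997 (SE 0.20) and -1.33 (SE 0.22) in uninjured and injured joints at 1-day, -1.13 (SE 0.22) and -0.77 (SE 0.20) at 1-week and -1.19 (SE 0.20) in injured joints at 2-weeks, all called. The 1-week calls were lost when factors estimated from housekeeping genes were added to the fit, at -0.62 (adjusted p = 0.152) in uninjured and -0.30 (adjusted p = 0.442) in injured joints with 1 factor. With 2 factors the difference in injured joints turned to 0.20 (adjusted p = 0.664). From 2 to 13 of the 19 marker lists were apart between the strains in these 6 settings. The T cell list was lower in STR/ort in each of them (0.822 to 4.96 against 6.24 to 8.72 CPM in uninjured joints at 2-weeks) and the synovial lining list higher (1237 to 2316 against 476 to 702 CPM there), and their part was not tested.

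Gpx3 and Capg were higher in STR/ort than in C57BL/6 at 1-week. Gpx3 had 552, 727, 501 and 671 CPM in uninjured STR/ort and 248, 239.8, 256, 277 and 291 CPM in uninjured C57BL/6 joints, at a log2 difference of 1.24 (SE 0.10, adjusted p = 2.64e-11). In injured joints it had 1011, 815, 833, 729 and 774 CPM and 308, 285, 321, 299 and 366 CPM, at 1.38 (SE 0.09, adjusted p = 1.11e-12). No libraries overlapped, and at 0-day, 1-day and 2-weeks the log2 difference of Gpx3 lay between -0.15 and 0.48. Capg had 97.6, 121, 85.4 and 91.5 CPM in uninjured STR/ort and 59.8, 50.3, 52.6, 64.1 and 64.4 CPM in uninjured C57BL/6 joints at 1-week, at 0.78 (SE 0.11, adjusted p = 1.04e-06). In injured joints the difference was 0.61 (SE 0.10, adjusted p = 1.04e-05), which fell below the fold threshold without STR/ort injured replicate 1 (0.57) or 2 (0.53). It was lost as well with housekeeping scaling (0.45) and with 1 or 2 factors from housekeeping genes (0.32, adjusted p = 0.118, and 0.54), and the uninjured call with 1 factor (0.47). At 0-day Capg went the other way, at -0.39 (SE 0.09, adjusted p = 0.00295). The 3 synovial lining markers, none at 0, summed to 6234 to 18935 CPM in uninjured STR/ort joints at 1-week and 968 to 1399 CPM in those of C57BL/6. The 8 macrophage markers were apart too, at 2813 to 3484 CPM against 2104 to 2562 CPM in uninjured and 2410.4 to 2814 CPM against 2102 to 2309.5 CPM in injured joints. The part of these lists in the differences was not tested.

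**Figure D3:**
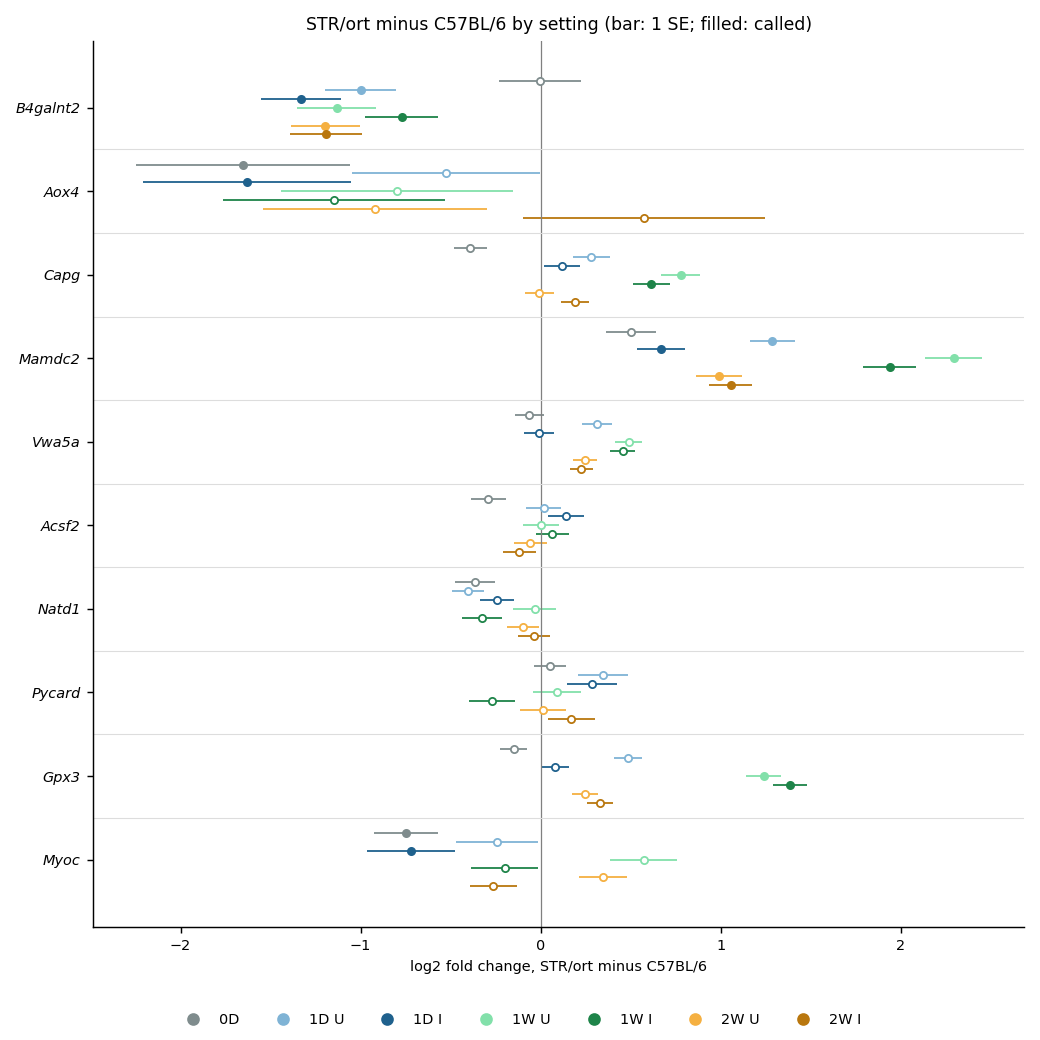
Log2 fold change of each gene in STR/ort against C57BL/6 in the 7 settings (0-day, then uninjured U and injured I joints at each later time), with bars of 1 SE and filled points where a difference was called. Mamdc2 lies to the right in every setting (0.50 to 2.29), B4galnt2 to the left in all but 0-day (-1.33 to -0.77), and Gpx3 passes 1 only at 1-week (1.24 and 1.38).

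Myoc was lower in STR/ort at 0-day, at -0.75 (SE 0.18, adjusted p = 0.00323), and in injured joints at 1-day, at -0.72 (SE 0.25, adjusted p = 0.0257). The first call was lost without STR/ort replicate 4 (-0.58), and the second without any of 6 single libraries, namely C57BL/6 injured replicates 3 and 5 and STR/ort injured replicates 1 to 4 (-0.68 to -0.57). With 1 or 2 factors from housekeeping genes both calls were lost, at -0.65 (adjusted p = 0.0651) and -0.49 (adjusted p = 0.533) at 0-day and at -0.29 (adjusted p = 0.57) and -0.30 (adjusted p = 0.523) in injured joints at 1-day. In uninjured joints Myoc went the other way at 1-week, at 0.57 (SE 0.19, adjusted p = 0.0134), under the fold threshold, and was called there with 1 factor (0.82, adjusted p = 0.0487) and without C57BL/6 replicate 3 (0.62) or 5 (0.61) or STR/ort replicate 2 (0.67). At 2-weeks the difference in uninjured joints was 0.34 (SE 0.13, adjusted p = 0.0528). At 0-day 6 of the 19 marker lists were apart between these strains, with 50256 to 55606 CPM of fast and 565 to 1344 CPM of slow muscle markers in STR/ort against 23581 to 37382 and 78.2 to 133 CPM in C57BL/6, and in injured joints at 1-day 4 were, neither muscle list among them. Their part in the differences of Myoc was not tested. Aox4 was called at 0-day, at -1.65 (SE 0.60, adjusted p = 0.0379), and in injured joints at 1-day, at -1.63 (SE 0.58, adjusted p = 0.032). With 0 to 7 counts per library at 0-day in these strains, that call stood in 6 of 12 fits that each left out a library, and the other in 24 of 30. The call at 0-day stood in 4 of 8 alternatives that kept all libraries and was lost with DESeq2 (adjusted p = 0.0748), in 1 fit of all 100 libraries (0.0532) and with 1 or 2 factors from housekeeping genes (0.202 and 0.212), while the other stood in 8 of 8. Vwa5a had log2 differences of 0.49 (SE 0.07, adjusted p = 4.46e-06) and 0.45 (SE 0.07, adjusted p = 3.4e-06) at 1-week, under the fold threshold, and was called there with factors from housekeeping genes (0.61 to 0.74).

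Change over time was followed among the 70 libraries of batch 1. In uninjured MRL/MpJ joints 0 of the 10 genes were called against 0-day at 1-day (1 at an unadjusted p below 0.05, 0 with DESeq2) and 0 at 1-week (0 and 0), where 0.0924% and 0.0% of all genes were. In injured MRL/MpJ joints 0 genes were called between 1-day and 1-week (1 and 0), against 3.11%. C57BL/6 had 0 genes at 1-day (1 and 0), 3 at 1-week and 1 between the injured time points, against 0.0693%, 5.72% and 4.47%. STR/ort had 3, 4 and 4, against 9.92%, 13.6% and 13.9%.

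In uninjured STR/ort joints Capg, Mamdc2 and Gpx3 rose above the 0-day level. Capg had 63.6, 58.1, 50.01 and 47.7 CPM at 0-day, 82.1, 97.3, 86.97, 85.7 and 89.6 CPM at 1-day and 97.6, 121, 85.4 and 91.5 CPM at 1-week. All later libraries lay above those of 0-day, at log2 changes of 0.69 (SE 0.11, adjusted p = 2.9e-06) and 0.83 (SE 0.12, adjusted p = 8.24e-08), the former below the fold threshold with 1 factor from housekeeping genes (0.50). The change of Mamdc2 was 0.91 (SE 0.15, adjusted p = 3.44e-06) and that of Gpx3 0.75 (SE 0.09, adjusted p = 5.21e-09) at 1-week. At 1-day that of Mamdc2 was 0.50 (SE 0.15, adjusted p = 0.00727), which passed the fold threshold without replicate 1 (0.59) or 3 (0.60) of every group. Myoc rose at 1-day, at 0.62 (SE 0.23, adjusted p = 0.0382), a call lost without replicate 2, 3 or 4 of every group (0.44 to 0.73), with DESeq2 (adjusted p = 0.0547), with housekeeping scaling (adjusted p = 0.0756) and with 2 factors (adjusted p = 0.082). B4galnt2 fell, at -0.72 (SE 0.23, adjusted p = 0.0139) at 1-day and -0.76 (SE 0.26, adjusted p = 0.0164) at 1-week, and both calls were lost without replicate 3 (-0.62 and -0.68) or replicate 4 (-0.53 and -0.49) of every group and with factors from housekeeping genes (0.01 and -0.10 with 1 factor). The 3 synovial lining markers summed to 2639 to 6311 CPM at 0-day, 6594 to 9307 at 1-day and 6234 to 18935 at 1-week in these joints, and the 5 fast muscle markers to 50256 to 55606, 21997 to 36666 and 18745 to 37427 CPM. The macrophage markers summed to 1738 to 2436, 2478 to 3017 and 2813 to 3484 CPM in the same order. Of the 19 lists, 5 were apart from 0-day at 1-day and 6 at 1-week, and their part in the changes was not tested.

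In uninjured C57BL/6 joints Mamdc2, Gpx3 and Myoc fell from 0-day to 1-week. The log2 changes were -0.84 (SE 0.16, adjusted p = 8.52e-05), -0.61 (SE 0.09, adjusted p = 6.02e-07) and -0.99 (SE 0.23, adjusted p = 0.00144). That of Gpx3 fell below the fold threshold without replicate 2 or 4 of every group and in 1 fit of all 100 libraries (-0.57 each time). Of the 19 marker lists 6 were apart between these groups. The tendon and ligament markers went from 1166 to 1670.3 to 527 to 689 CPM, the synovial lining markers from 1589 to 2705 to 968 to 1399, the bone markers from 2106 to 2942 to 1245 to 1769.8 and the slow muscle markers from 78.2 to 133 to 274 to 763 CPM, with mast cell and erythroid markers apart as well. Their part in the changes was not tested. Mamdc2 and Gpx3 thus changed in opposite directions in C57BL/6 and STR/ort over the week, each change called in its own strain, while the difference between these changes was not tested.

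In injured joints, STR/ort changed from 1-day to 1-week in 4 genes. Mamdc2 rose from 22.8, 25.9, 26.7, 27.999 and 26.7 CPM to 64.3, 63.3, 66.5, 64.8 and 73.7 CPM, a log2 change of 1.35 (SE 0.14, adjusted p = 3.92e-12). Gpx3 rose from 411, 428, 457, 417 and 447 CPM to 1011, 815, 833, 729 and 774 CPM, at 0.94 (SE 0.08, adjusted p = 9.99e-15), and the lowest 1-week library was well above the highest of 1-day. Pycard fell from 34.2, 55.1, 56.8, 50.4 and 46.7 CPM to 31.1, 31.2, 20.7, 31.6 and 31.97 CPM, at -0.74 (SE 0.13, adjusted p = 6.37e-06). Without replicate 3 of every group the change of Pycard was -0.54, below the fold threshold. B4galnt2 rose by 0.63 (SE 0.25, adjusted p = 0.0411) on the log2 scale, a call lost without replicate 1 (0.57), 2 (0.57) or 4 (0.43) of every group and with 1 or 2 factors from housekeeping genes (0.50 and 0.53). Of the 19 marker lists 6 were apart between these groups, with tendon and ligament markers going from 1478 to 2261 to 3137 to 4435 CPM, endothelium from 272 to 304 to 347 to 436 and B cell markers from 119.8 to 198 to 38.3 to 102 CPM, and their part was not tested. In injured C57BL/6 joints Myoc fell, at -0.90 (SE 0.23, adjusted p = 0.00336), while 7 of the 19 lists were apart and neither muscle list was. Acsf2, Natd1, Vwa5a and Aox4 were called in no comparison over time. Over the 9 comparisons their log2 changes were -0.27 to 0.25, -0.02 to 0.30, -0.43 to 0.29 and, at few counts, -0.42 to 0.68.

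**Figure D4:**
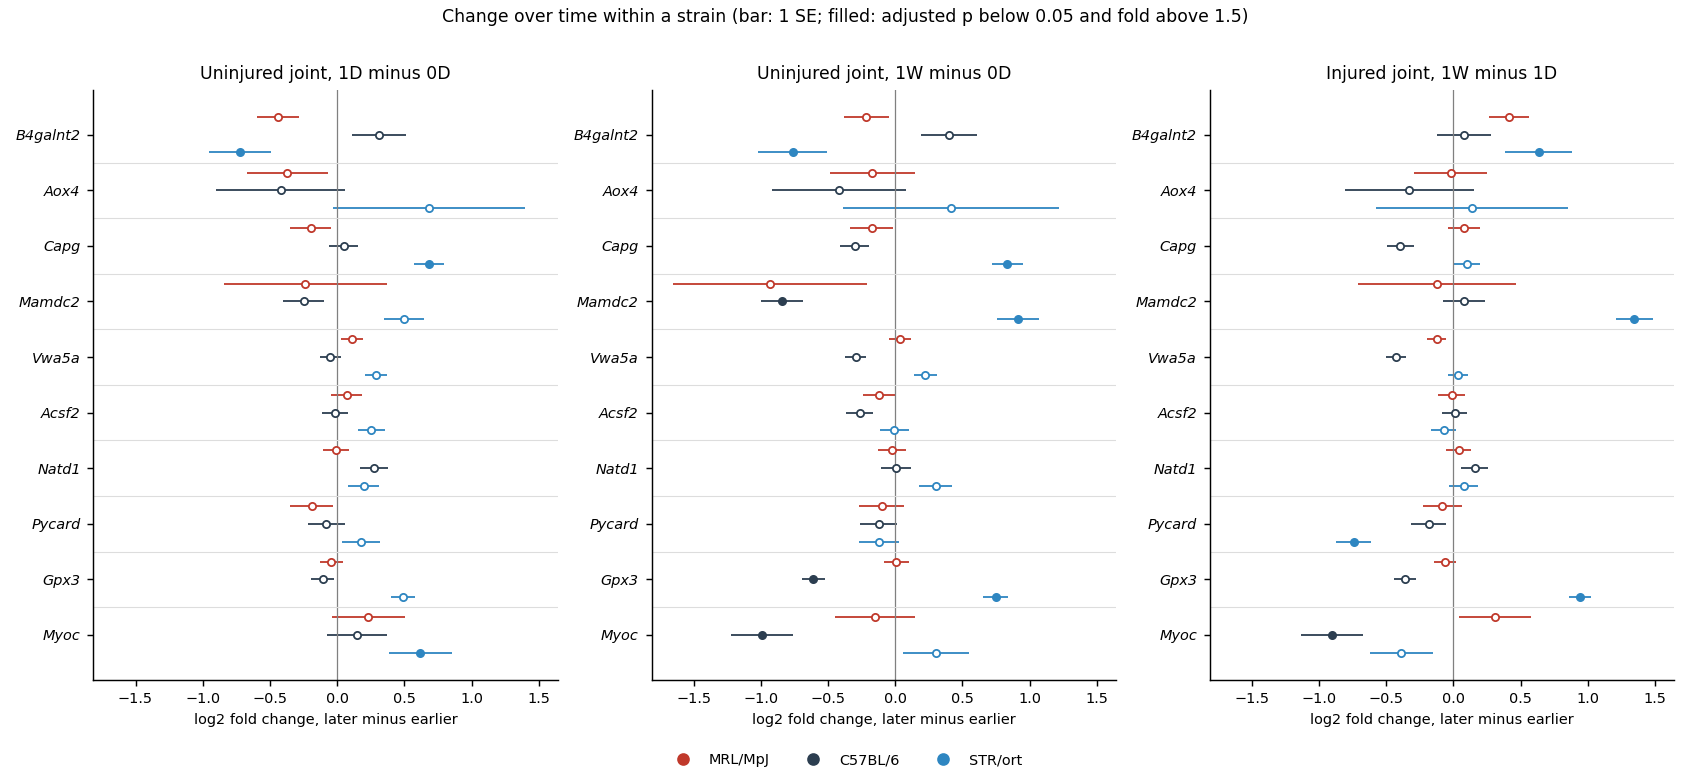
Log2 fold change of each gene over time within a strain, in uninjured joints at 1-day and 1-week against 0-day and in injured joints at 1-week against 1-day, with bars of 1 SE and filled points where a change was called, in MRL/MpJ (red), C57BL/6 (dark) and STR/ort (blue). No red point is filled, and most filled points are those of STR/ort, such as Mamdc2 (1.35) and Gpx3 (0.94) in injured joints.

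Levels of the 10 genes were correlated across the 100 libraries (log2 CPM), which share the strain, time and joint of their group, so the values describe these libraries. Across all libraries Capg and Mamdc2 had a Pearson r of 0.96 and B4galnt2 and Mamdc2 one of -0.93, as the strain difference sets. After removal of the group means, the highest r among the 45 pairs was 0.47 for Capg and Pycard, followed by 0.37 for Capg and Gpx3, and the lowest was -0.29 for Pycard and Myoc. Against summed markers within groups, Pycard had an r of 0.49 with the macrophage list, 0.58 with the B cell list and -0.57 with the fast muscle list. Natd1 had 0.59 with the erythroid list, Vwa5a 0.54 with the tendon and 0.53 with the synovial lining list, and Capg 0.39 with the macrophage list.

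Of 14417 genes with a mean of at least 1 CPM, the one most like each member over all 100 libraries was sought by Pearson r. Glo1 followed B4galnt2 (0.94) and ran against Capg (-0.97) and Mamdc2 (-0.95), and C4b followed Capg (0.97) and Mamdc2 (0.96). Dnah8 was nearest to Aox4 (0.89), Gm8580 to Vwa5a (0.92), Trim12a to Acsf2 (0.93), Gm10653 to Natd1 (0.94), Slc25a17 to Pycard (0.93) and Ccnd2 to Gpx3 (0.92). The lowest r was with Zfp979 for B4galnt2 (-0.94) and Aox4 (-0.90), Tirap for Acsf2 (-0.92), Trim5 for Natd1 (-0.95), Arhgef12 for Pycard (-0.91) and Usp25 for Gpx3 (-0.91). Myoc had the weakest likeness, with 0.79 for Cyb5r4 and -0.76 for AI506816. Within groups these values shrank, to 0.44 for Capg and C4b and to 0.04 for B4galnt2 and Zfp979.

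Other members of the families of the 10 genes were tested for a difference of MRL/MpJ from both other strains in the same direction. Over all genes 1.43% were called so in all 7 settings and 17.8% in at least 1. Of the 12 other inflammasome genes, 2 were called in all 7 settings. Nlrp1b, an inflammasome sensor, was higher in MRL/MpJ (median 11.2 CPM) than in C57BL/6 (2.94) and STR/ort (2.26), and its near-identical paralog Nlrp1a was lower (2.00 against 7.18 and 6.73 CPM), so that the split of reads between them is uncertain. Of 12 other acyl-CoA synthetase genes, 1 was called in all settings. This was Acsl6, which activates long-chain fatty acids, at 22.0 CPM in MRL/MpJ against 11.6 and 10.0 CPM. Of 8 other olfactomedin genes, 1 was called in all settings, Olfml2a, at 9.11 CPM in MRL/MpJ against 17.5 and 20.7 CPM, and 5 in at least 1 setting. None of 3 GalNAc transferase or 4 aldehyde oxidase genes was called in any setting, and 3 of 6 gelsolin family genes (Gsn, Scin, Avil), 1 of 5 MAM domain genes (Egfl6) and 1 of 4 glutathione peroxidase genes (Gpx8) were called in some but not all.

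After injury, 0 of the 54 other genes of these 8 families were called in MRL/MpJ, 8 in C57BL/6 (14.8%) and 8 in STR/ort (14.8%) at 1-day, where 2.02%, 5.6% and 4.31% of all genes were. At 1-week 5, 5 and 11 were called (9.26%, 9.26% and 20.4%, against 3.13%, 5.82% and 9.21% of all genes), and at 2-weeks 0, 4 and 7 (0.0%, 7.41% and 13%, against 1.16%, 2.95% and 4.66%). The GalNAc transferase and aldehyde oxidase genes had no call in any of these comparisons. Of 5 MAM domain genes 2 (Egfl6 and Mdga2) and of 12 acyl-CoA synthetase genes 4 were called at least once in the 9 comparisons, as were 16.6% of all genes. Of the 4 other glutathione peroxidase genes, Gpx7 and Gpx8, which act in protein folding in the endoplasmic reticulum, rose in injured joints of all 3 strains at 1-week, with log2 changes of 0.83 and 0.67 in MRL/MpJ, 1.33 and 0.73 in C57BL/6 and 1.32 and 0.70 in STR/ort, while the secreted Gpx3 was not called. Tendon and ligament markers were also higher in these injured joints without overlap in each strain, and the part of cell types in the family changes was not tested. Of the 12 inflammasome genes, Il1b and Nlrp1b rose at 1-day in C57BL/6 (0.62 and 0.74) and STR/ort (0.77 and 0.89), 0 were called in MRL/MpJ, and Pycard was called in no injury comparison. Nlrp1a was called in STR/ort at 1-week, and the split of reads between Nlrp1a and Nlrp1b is uncertain. Of the 6 gelsolin family genes, Gsn fell at 1-day in C57BL/6 (-0.76) and STR/ort (-0.66), where Capg was not called. Of the 8 olfactomedin genes, Olfml1 rose at 1-week in MRL/MpJ (1.08), C57BL/6 (1.13) and STR/ort (1.03), whereas Myoc fell in the latter strains. At 1-day in STR/ort, however, Olfml1 was called lower in injured joints, as Myoc was.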

How the data were processed

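Knee joints of 100 libraries were profiled by poly(A)-enriched RNA-seq. Per the submitters' processing notes, reads were aligned to mm10 with TopHat2 2.0.11 and counted per gene with featureCounts, and the authors deposited the resulting whole-number counts per gene without normalization. After 3 duplicates were dropped from 17313 entries, 17310 genes remained, 24 of them with date-like names. A minimum of 2 counts in 5 or more libraries, as in the study, excluded 0 genes. Of 190 pairs of libraries within groups, 0 were identical.

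Counts were tested with edgeR 4.0.16 (R 4.3.3) by the quasi-likelihood test after TMM scaling, in 1 fit per time point with a mean per strain and joint, and, for changes over time, in 1 fit of the 70 libraries of batch 1. All adjusted p-values are Benjamini-Hochberg values over all genes of this test unless DESeq2 (1.42.0) is named. A gene was called at an adjusted p below 0.05 and a fold change above 1.5, the thresholds of the study. CPM were computed with TMM factors from all 100 libraries (prior count 2 on the log2 scale). Library totals, from 6182016 to 20986027 counts (median 10582591.5), limit the precision of genes at low counts. The scripts were tested on simulated data.

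All 10 genes are named in each kind of comparison, those not called over time or in the interaction by their range. From each family at most 4 called genes are named per comparison, by smallest adjusted p, with for each of the 10 genes the most and the least similar gene. The genes and the lists were chosen with earlier results of these data known.

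Whether replicate numbers pair the injured and uninjured joints was checked by the correlation of their deviations from the group means. At 2-weeks 15 pairs carry an animal name in the labels, so the numbers pair the joints there (median r per strain from -0.17 to 0.37). At 1-week all 4 STR/ort pairs were above 0.1 (0.16 to 0.37). Each other strain and time of 1-day and 1-week had at least 1 pair below 0.1. The check cannot show pairing, since the named MRL/MpJ pairs of 2-weeks had -0.28 to 0.08 and joints of unlike number were not compared. Joints of 1-day and 1-week are therefore known only to share a number.

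Alternatives were RLE size factors, scaling by 25 housekeeping genes, RUVg with 1 or 2 factors from those genes, DESeq2, no filter, filterByExpr, 1 fit of all libraries, the replicate number as a block, CPM without TMM, and each library or replicate left out in turn. Not every gene correlated with the members is reported here.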

Additional observations from a re-analysis of the deposited data

Results flagged for a closer look

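Within 210 groups of libraries (10 genes in 21 groups), 15 held a library far from the others of its group, or 7.14%, where chance gives about 1 in 20. The 15 lay in 15 different libraries. In STR/ort, B4galnt2 had 1.69 CPM in injured replicate 5 at 1-week (others 2.34 to 2.55), and Aox4, at few counts, 0.414 CPM in injured replicate 3 at 1-day and 0.305 CPM in injured replicate 4 at 1-week. Also in STR/ort, Natd1 had 26.1 CPM in injured replicate 3 at 2-weeks (31.2 to 32.8), Pycard 20.7 CPM in injured replicate 3 at 1-week (31.1 to 31.97), and Myoc 66.1 CPM in injured replicate 5 at 1-day (17.3 to 23.4). In C57BL/6, Capg had 95.7 CPM in uninjured replicate 4 at 1-day (62.9 to 70.7) and 65.5 CPM in uninjured replicate 5 at 2-weeks (71.0 to 72.5). Natd1 had 25.7 CPM in uninjured replicate 4 at 1-week (16.1 to 18.4), and Myoc 123 CPM in uninjured replicate 1 at 1-day (73.9 to 87.7). In MRL/MpJ, Capg had 12.0 CPM in injured replicate 3 at 2-weeks (16.4 to 17.9), Acsf2 14.9 CPM in replicate 2 at 0-day (11.4 to 11.9), Gpx3 169 CPM in replicate 3 at 0-day (186 to 188) and 196 CPM in injured replicate 3 at 1-week (169 to 175), and Myoc 16.6 CPM in injured replicate 5 at 1-day (7.69 to 9.77).

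By the interaction test, the injury change at 1-day differed between STR/ort and C57BL/6 for Mamdc2 (STR/ort minus C57BL/6 -0.62, adjusted p = 0.0477) and for Gpx3 (-0.41, adjusted p = 0.0336, under the fold threshold). The call of Mamdc2 is unstable, as it stood in only 7 of 30 fits that each left out a library.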

How the results depend on the processing

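The number of pairs of a gene and a setting in which MRL/MpJ was apart from both other strains was 69, 69 with CPM without TMM and 67 with housekeeping scaling (69 to 70 without single replicates). Of 2360 further values under alternatives that kept all libraries, 2311 kept their direction and side of the threshold, 17 passed it only there, 28 no longer passed it and 4 reversed. The reversals came with RUVg. B4galnt2 in STR/ort against C57BL/6 was 0.1976 in injured joints at 1-week with 2 factors, B4galnt2 in uninjured STR/ort joints at 1-day against 0-day was 0.0144 with 1 factor and 0.1638 with 2, and Pycard in STR/ort against C57BL/6 was -0.6408 in uninjured joints at 1-week with 1 factor (0.09 in the main test, not called). The cause was not tested. The interaction of injury with STR/ort against C57BL/6, called for 1 gene, was called for 0 in 1 fit of all 100 libraries and 0 with housekeeping scaling.

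Leaving out single libraries gave 18 to 21 calls for STR/ort against C57BL/6 (20 in all libraries), 0 to 2 for the interaction (1), and 2 to 3, 1 to 3 and 3 to 5 for injury in MRL/MpJ (2), C57BL/6 (2) and STR/ort (4). Leaving out 1 replicate number from every group gave 6 to 11 for uninjured joints against 0-day (10) and 4 to 5 for injured joints at 1-week against 1-day (5). With the replicate number as a block, injury calls were 3 in MRL/MpJ, 2 in C57BL/6 and 4 in STR/ort and interaction calls 1. Myoc in MRL/MpJ at 1-day gained its call (-0.95, adjusted p = 0.0257), Myoc gained the interaction at 1-week (-0.92, adjusted p = 0.0326) and Mamdc2 lost that at 1-day (-0.605, adjusted p = 0.0543), at times when the labels do not name the mouse. The block changed no other call of the 10 genes. Depth limits Aox4, at 0 in 2 C57BL/6 and 6 STR/ort libraries, and Mamdc2 in MRL/MpJ, at 0 to 12 counts per library.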
